A study of Mus musculus with 12 samples.

Results

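Wnt ligands are secreted, lipid-bearing proteins that act on cells close to their source. In the dermal papilla (DP), the cluster of mesenchymal cells at the base of the hair follicle, they were followed here as the 10 Wnt ligand genes with the highest mean level over all 12 libraries, out of 12 such genes listed on both days and 15 listed on either. They were chosen by their mean normalized reads, and in that order were Wnt5a, Wnt5b, Wnt11, Wnt6, Wnt9a, Wnt2b, Wnt2, Wnt16, Wnt10a and Wnt10b. The choice also required Wnt5a, Wnt5b and Wnt16, because an earlier look at these data had called those 3 genes between genotypes at P16. All 3 were within the 10 on their mean alone. Their genotype difference at P16, and any value that uses the P16 libraries, is therefore a description and supports nothing about them.

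RNA was sequenced from YFP-labelled DP cells sorted by FACS from mouse skin at postnatal days 14 (P14) and 16 (P16), both in anagen, the growth phase of the follicle. Each day had 3 control mice and 3 dMF1/2 double mutants, which carry Cor-cre with floxed Fgfr1 and Fgfr2 on both chromosomes and so lose these FGF receptors where the Cre is active. The labels call the controls wild type. The methods of the study list 2 kinds of control, Cor-cre/+ with 1 floxed copy of each receptor, or mice without Cre that carry both floxed copies, and the YFP reporter that was sorted needs Cre. Cor-cre is expressed from the Corin locus in the DP after birth, so Cre-positive controls would share the Cre allele and the reporter with the mutants. Each library came from the sorted cells of a single mouse, by the study's account.

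The libraries held 19302358 to 29860750 reads in protein-coding genes. All 12 dermal papilla markers (such as Corin, Vcan and Sox2) were present on both days. Their summed level was 88656 to 143668 normalized reads at P14, 38753 to 79677 in P16 controls and 82346 to 126630 in P16 dMF1/2. The 14 keratinocyte markers found, of 17 looked for, summed to 543 to 1306 normalized reads over the 12 libraries. Markers of dermal fibroblasts were much higher, and the 6 looked for summed to 29778.5 to 43122. In P16 control replicate 1 they summed to 33523, beside the papilla sum of 38753. The part of fibroblasts among the sorted cells in the ligand values was not tested. Fgfr1 was lower in each dMF1/2 library (6121 to 7837 normalized reads) than in any control (7855 to 12337), while Fgfr2 overlapped between genotypes (3704 to 5470 against 4547 to 5279). These counts are per gene and not per floxed exon. In sorted cells measured in bulk, fewer cells of a type and less RNA per cell cannot be told apart.

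Wnt ligands bind Frizzled receptors on a neighbouring cell. With the co-receptors Lrp5 and Lrp6 they stabilise beta-catenin, the canonical route, and with Ror2 or Ryk they act on cell shape and polarity without it. Wnt10b, Wnt10a and Wnt2 are known mainly for the canonical route, and Wnt5a, Wnt5b and Wnt11 mainly for the other one. Wnt5a has long been known as a ligand of the follicle mesenchyme, and Wnt10b and Wnt10a as ligands of the hair follicle epithelium.

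What the 10 ligands share is a loop around 1 serine, to which the enzyme Porcn attaches the lipid that a Frizzled receptor grips and from which the secreted enzyme Notum removes it. The coding sequences of the loop (30 bases each, in 1 coding exon of each gene in GENCODE M21 on GRCm38) are shown because they hold the site of the lipid that all these ligands carry. The codon of the lipid-bearing serine is in capitals.
Wnt5a: tgtaagtgtcatggagtgTCTggctcctgt
Wnt5b: tgcaaatgtcacggagtcTCCgggtcctgc
Wnt11: tgtaaatgccatggggtgTCTggctcctgc
Wnt6: tgtaagtgccatgggcttTCGggttcctgc
Wnt9a: tgcaaatgccatggtgtgTCTggctcctgc
Wnt2b: tgcaagtgtcacggtgtgAGTggctcctgt
Wnt2: tgcaagtgtcatggtgtgAGTggctcctgt
Wnt16: tgccgctgccacggagttTCCggctcctgt
Wnt10a: tgcaaatgccacggcaccTCAggcagctgc
Wnt10b: tgcaaatgccatggaacgTCAggcagctgc

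The serine codon begins with TC in 8 of the genes and is AGT in Wnt2 and Wnt2b. Against the loop of Wnt5a (chr14:28522509-28522538, plus strand), the others differed at 4 bases (Wnt11 and Wnt2) to 12 bases (Wnt10a). The loop of Wnt5b lies at chr6:119433800-119433829 on the minus strand and differed from it at 7 bases, and that of Wnt16 lies at chr6:22297794-22297823 on the plus strand and differed at 8.

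The members are near relatives, so it was checked whether their reads could be counted for one another. The longest identical coding run of Wnt5a and Wnt5b was 29 bases, shorter than the reads of 61 bases: atggacggctgcgagctcatgtgctgtgg, at chr14:28522791-28522819 in Wnt5a and chr6:119433519-119433547 in Wnt5b. No stretch of read length in the transcripts of the 10 genes was found in another gene's transcripts, apart from Wnt5a and Wnt11. In Wnt5a, 3.05% of such stretches were shared with Gm2670, an antisense gene that overlaps 358 of its 7823 exon bases. In Wnt11, 7.16% were shared with Gm8398, a pseudogene on the other strand that overlaps 364 of 4137 exon bases. The libraries were stranded, but the strand setting of the counting is not given in the sources used here.

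Wnt5a was the most abundant member. Per kilobase of exon, it averaged 606 normalized reads over the 12 libraries (382.9 to 861), and it was the highest of the Wnt genes in 12 of 12 libraries. Wnt6 (249.99, range 184 to 362) and Wnt5b (246, 115 to 411) came next and overlapped. Wnt11 followed at 144 (116 to 168) and overlapped Wnt5b but lay below every library of Wnt6. Wnt9a averaged 87.9 (72.9 to 112), below every library of Wnt11.

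The remaining neighbours in this order overlapped in their ranges. They were Wnt2 at 72.6 normalized reads per kilobase, Wnt2b at 45.6, Wnt10a at 35.0, Wnt16 at 23.1 and Wnt10b at 21.6. The order per kilobase differs from the order of choice, which used reads per gene. On that measure Wnt10b, the last gene in, had a mean of 73.3 normalized reads, and Wnt4, the first left out, had 40.3. Wnt9b was left out at 12.2. Wnt1 and Wnt3 were listed only at P14 and Wnt7b only at P16, with 0 to 15 reads in a library.

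**Figure D1:**
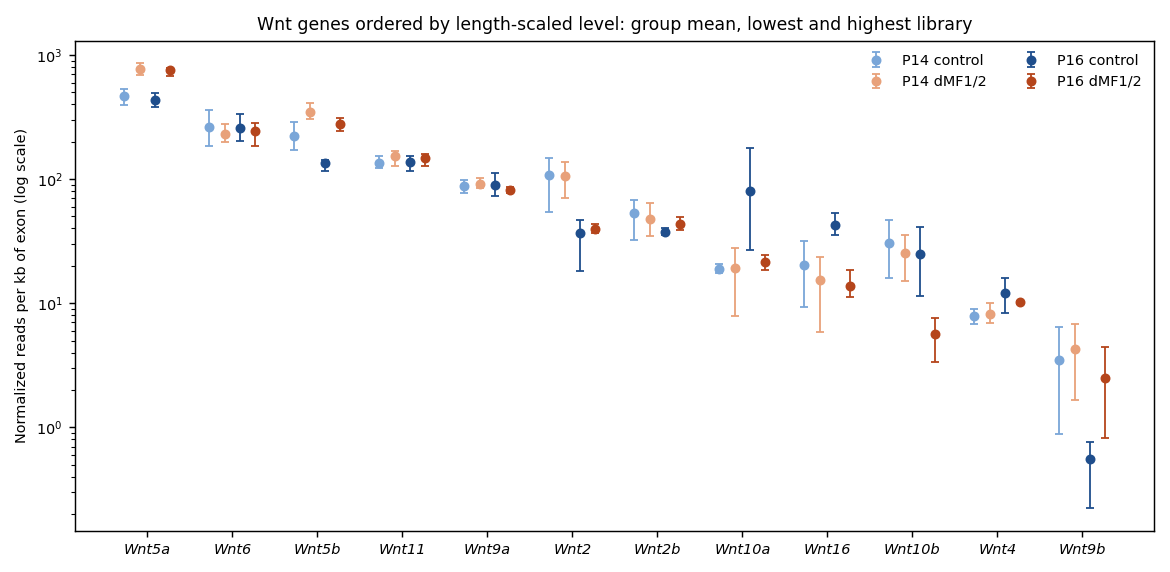
Level of the 12 Wnt genes listed on both days, as normalized reads per kilobase of exon on a log scale, with the 12 libraries scaled together. Points are the means of 3 libraries of a group and bars run from its lowest to its highest library. Wnt5a averages 606 and every other Wnt gene 249.99 or less.

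The 10 members summed to 5414 to 6960 normalized reads in the 6 control libraries and to 7983 to 9413 in the 6 dMF1/2 libraries. Wnt5a made up 50.9 to 64.7% of this sum in controls and 63.6 to 71.7% in mutants. The genotypes did not overlap in the sum, of which Wnt5a was the larger part in every library. The sum holds Wnt5a and Wnt5b, which were required through the P16 libraries, so it is a description and nothing is read from it. Scaled per kilobase, the share of Wnt5a was 27.1 to 41.3% in controls and 39.7 to 48.5% in mutants.

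**Figure D2:**
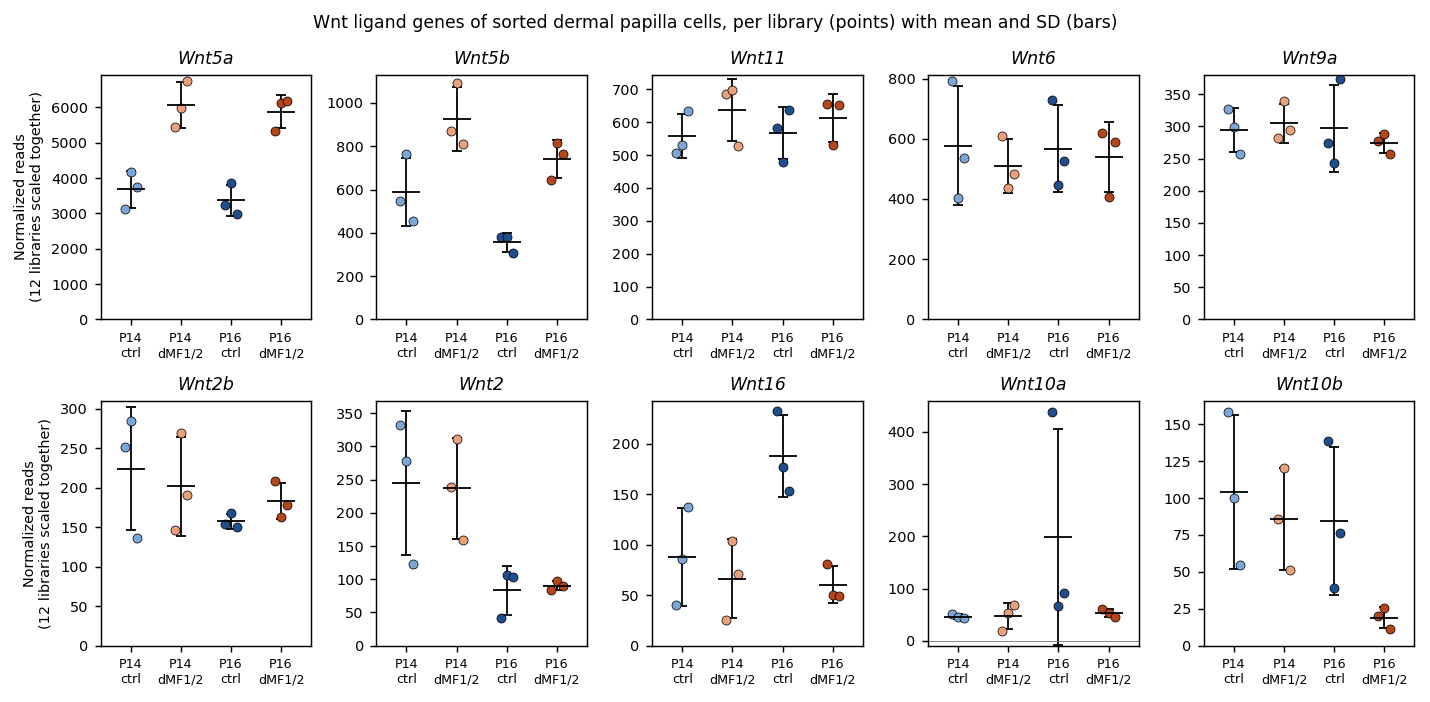
Normalized reads of the 10 ligand genes in each library (y axis, 12 libraries scaled together), by group (ctrl, control). Points are single libraries, horizontal marks the means of 3 and bars the SD. Wnt5a and Wnt5b lie higher in dMF1/2 on both days, Wnt16 is highest in the 3 P16 controls, and 1 P16 control stands alone for Wnt10a.

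To see which ligands differed between control and dMF1/2 libraries, the genotypes were compared within each day. Fold changes are log2 differences of dMF1/2 over control after adding 1 to the normalized reads, and adjusted p-values are from limma over all genes tested, with a threshold of 0.05. Wnt5a and Wnt5b were higher in every dMF1/2 library than in every control on both days. Wnt16 was lower in every mutant at P16 and overlapped at P14. Of the other 7 members none passed the test at either day, and Wnt10b came closest, at P16.

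At P14, Wnt5a (chr14:28504750-28527447) had 3079.99, 4110.4 and 3696 normalized reads in controls 1, 2 and 3, and 5362, 5934 and 6675 in the mutants. The groups did not overlap, with a log2 fold change of 0.73 (SE 0.14). Its adjusted p was 0.221. Same-numbered libraries of a day deviated together, and with the replicate number as a block the adjusted p was 0.0110.

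Wnt5b (chr6:119432531-119544347) gave 541, 754 and 450 normalized reads in P14 controls and 859, 1082 and 803 in P14 mutants. The lowest mutant was again above the highest control. The log2 fold change was 0.67 (SE 0.20), with an adjusted p of 0.456, or 0.0160 with the replicate block. Within each numbered pair the mutant was higher, by 0.52 to 0.84 on the log2 scale.

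Wnt16 (chr6:22288227-22298522) held 40.1, 84.7 and 135.6 normalized reads in P14 controls and 25.2, 102 and 69.98 in P14 mutants. These groups overlapped, with a log2 fold change of -0.44 (SE 0.60, adjusted p = 0.977). No member passed the test at P14, where 0.0525% of all 13334 genes tested did, 7 genes, so the fit called little of anything on that day. With the replicate block, 2 of 10 members passed (Wnt5a and Wnt5b) and 1.68% of all genes. Groups did not overlap for 2 of 10 members and for 12.7% of all genes. The smallest p an exact permutation test allows for 3 against 3 is 0.1, so single genes cannot pass such a test within a day.

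At P16, Wnt5a had 3291, 3925 and 3033 normalized reads in controls and 5456, 6226 and 6295 in mutants, a log2 fold change of 0.82 (SE 0.12). Wnt5b had 387, 386 and 310.3 in controls and 657, 830.5 and 778 in mutants, which is 1.06 on the log2 scale (SE 0.13). Neither gene overlapped between genotypes, and for Wnt5b the controls were lower than at P14. Wnt16 went the other way.

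Wnt16 held 236, 180.4 and 155 normalized reads in P16 controls and 83.2, 51.3 and 49.7 in P16 mutants, so that each control was above each mutant. Its log2 fold change was -1.64 (SE 0.24). In reads, the 3 controls held 153 to 270 and the 3 mutants 47 to 77. The P16 fit called 3 of 10 members, Wnt5a, Wnt5b and Wnt16, beside 4.32% of all 13457 genes. This count restates what the choice of genes used, and nothing is read from it. Without dMF1/2 replicate 3 it was 1 member (Wnt5b), and the calls over all genes went from 582 to 149. With all 12 libraries in 1 model it was 2 members (Wnt5a and Wnt5b) and 595 genes. With the replicate block the fourth member called was Wnt10b, and 10.4% of all genes were called.

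Wnt10b (chr15:98771753-98778150), a canonical ligand, had 140.6, 39.4 and 77.1 normalized reads in P16 controls and 20.5, 26.1 and 11.6 in P16 mutants. The highest mutant was below the lowest control, at 11 to 28 reads against 38 to 161. Its log2 fold change was -1.97 (SE 0.47) with an adjusted p of 0.0588, above the threshold. With the replicate block the adjusted p was 0.0370 and by DESeq2 3.27e-04. Over the 6 fits without 1 library it ran from 0.0215 (without control replicate 2) to 0.174 (without dMF1/2 replicate 3), and 1 of the 6 passed.

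Wnt10a (chr1:74791516-74804179) is a close relative of Wnt10b. It held 443.5, 67.4 and 93.3 normalized reads in P16 controls and 61.6, 55.1 and 46.6 in mutants. The groups did not overlap, but the control mean rested on replicate 1. The log2 fold change was -1.37 (SE 0.61, adjusted p = 0.274), and it was -0.54 without that library (adjusted p = 0.324).

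That makes 5 of 10 members whose groups did not overlap at P16, of which Wnt5a, Wnt5b and Wnt16 had been required, against 24.5% of all genes. At P14 Wnt10b and Wnt10a overlapped between genotypes. Wnt10b ranged from 53.6 to 157 normalized reads in P14 controls and from 51.1 to 119 in mutants, and Wnt10a from 42.9 to 50.3 and from 19.3 to 67.8.

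**Figure D3:**
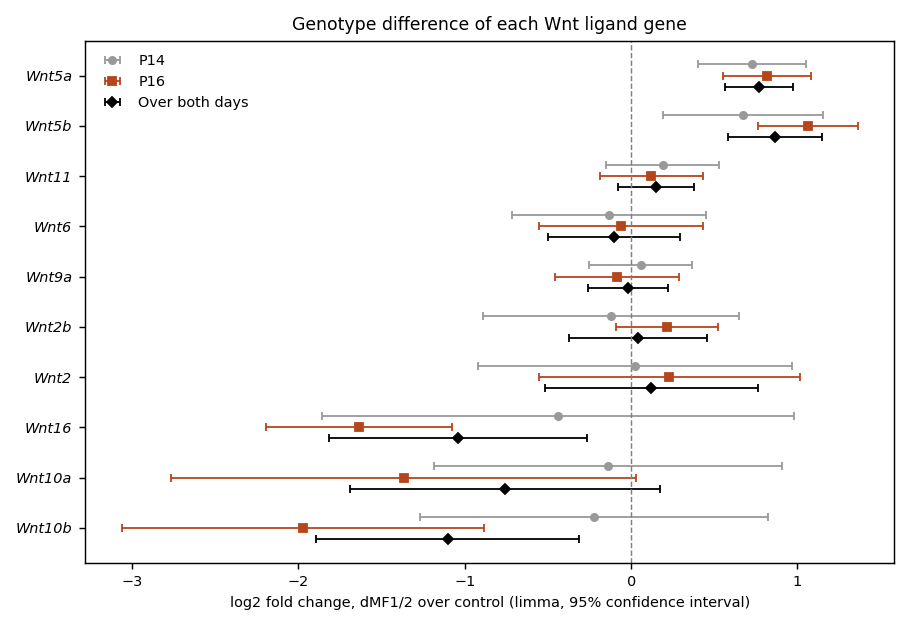
Log2 fold change of dMF1/2 over control (x axis) for each member (y axis) at P14, at P16 and over both days. Points are limma estimates and bars 95% confidence intervals. The intervals of Wnt5a and Wnt5b lie above 0 each time, those of Wnt16 and Wnt10b lie below 0 at P16 and over both days, and those of the other members include 0.

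Over both days in 1 model of the 12 libraries, the log2 fold change was 0.77 for Wnt5a (95% confidence interval 0.56 to 0.97) and 0.86 for Wnt5b (0.58 to 1.15). Each was higher in 6 of 6 mutants than in the controls of the same day. Wnt16 had -1.04 (-1.82 to -0.27). This model includes the P16 libraries through which these 3 genes were required, so the values are a description.

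Wnt10b had a log2 fold change of -1.10 over both days (-1.89 to -0.31), with an adjusted p of 0.0989. It was 0.0370 with the replicate block and 0.0123 by DESeq2. Over the 12 fits without 1 library it ran from 0.0439 (without P16 control replicate 2) to 0.208 (without P14 dMF1/2 replicate 3), and 1 of the 12 passed. For Wnt10a it was -0.76 (-1.69 to 0.18, adjusted p = 0.360). The fit over both days called 2 of 10 members, Wnt5a and Wnt5b, and 6.54% of 13415 genes. With the replicate block it called 4, Wnt16 and Wnt10b being added, and 12.6% of all genes. Since 3 of these 4 were required through the P16 libraries, nothing is read from these counts.

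The remaining 5 members did not pass the genotype test, and their intervals over both days bound what could be seen. Wnt11, which guides cell movements in the embryo, ranged from 480.2 to 638 normalized reads in controls and from 527 to 697 in mutants, with a log2 fold change of 0.15 (-0.08 to 0.38). Wnt6 had -0.10 (-0.50 to 0.30) and Wnt9a -0.02 (-0.26 to 0.22). Wnt2b, with 0.04 (-0.37 to 0.45), and its paralog Wnt2, with 0.12 (-0.52 to 0.76), had the wider intervals of the 5.

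Changes from P14 to P16 were then taken within each genotype, with all 12 libraries scaled together. In controls, Wnt5b and Wnt2 fell. Levels of Wnt5b were 548, 764 and 456 normalized reads in P14 controls and 381, 379 and 306 in P16 controls, a log2 change of -0.70 (SE 0.18, adjusted p = 0.0287). The P16 controls lay below all P14 controls. They are also the control libraries of the comparison through which Wnt5b was required.

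Wnt2 had 332, 278 and 124 normalized reads in P14 controls and 41.3, 106 and 103 in P16 controls. The days did not overlap, and the log2 change was -1.54 (SE 0.41, adjusted p = 0.0316). In mutants Wnt2 went from 239.5, 311 and 159 to 83.4, 97.3 and 89.3, again without overlap. The log2 change there was -1.34 (SE 0.41), with an adjusted p of 0.0815. It was 0.00917 by DESeq2 and 0.0353 with only the libraries compared, and 2 of 12 fits without 1 library passed (0.0476 to 0.223).

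Both control calls were lost with only the 6 control libraries in the fit, with adjusted p of 0.0747 for Wnt5b and 0.0900 for Wnt2. Both were also lost without P14 control replicate 1 (0.0667 and 0.115), P14 control replicate 2 (0.0819 and 0.0901) or P16 control replicate 1 (0.0646 and 0.108). Wnt5b was lost too without P16 control replicate 3 (0.0944).

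Wnt16 had 40.6, 85.9 and 137 normalized reads in P14 controls and 232, 177 and 153 in P16 controls. The P16 controls were all above the P14 controls, with a log2 change of 1.23 (SE 0.50) and an adjusted p of 0.118. In mutants Wnt16 was at 25.6, 103 and 70.7 and then at 81.3, 50.5 and 48.8, which overlapped. The P16 controls are also those through which Wnt16 was required.

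Wnt10a had 51.0, 44.6 and 43.5 normalized reads in the P14 controls and 437, 66.3 and 92.1 in the P16 controls, without overlap. This was a log2 change of 1.57 (SE 0.60) that did not pass the test (adjusted p = 0.1002), although it was 0.00459 by DESeq2 and 0.0471 by edgeR. Without P16 control replicate 2 it was 0.0474, the 1 of 12 fits without a library that passed. Without P16 control replicate 1 the log2 change was 0.74 (adjusted p = 0.3096).

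In mutants the member that passed was Wnt10b. It fell from 86.1, 121 and 51.6 normalized reads to 20.1, 25.7 and 11.4, a log2 change of -2.11 (SE 0.51, adjusted p = 0.0357). Its 2 days did not overlap in mutants. In controls they did, at 54.4 to 159 and 38.7 to 139. The mutant call depended on single libraries, with adjusted p of 0.0503 to 0.122 when any of 7 libraries was left out, namely P14 control 2, P16 control 3, the 3 P14 mutants, and P16 mutants 1 and 3.

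Wnt5a did not pass for either change. Its log2 change in controls was -0.13 (SE 0.13, adjusted p = 0.542), and its mutants ranged from 5438 to 6739 normalized reads at P14 and from 5335 to 6177 at P16. In mutants Wnt5b had a log2 change of -0.32 (SE 0.18, adjusted p = 0.339). In all, 2 of 10 members passed for the change in controls, both lower, against 14.5% of all genes, and 1 of 10 for the change in mutants, against 5.80%.

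**Figure D4:**
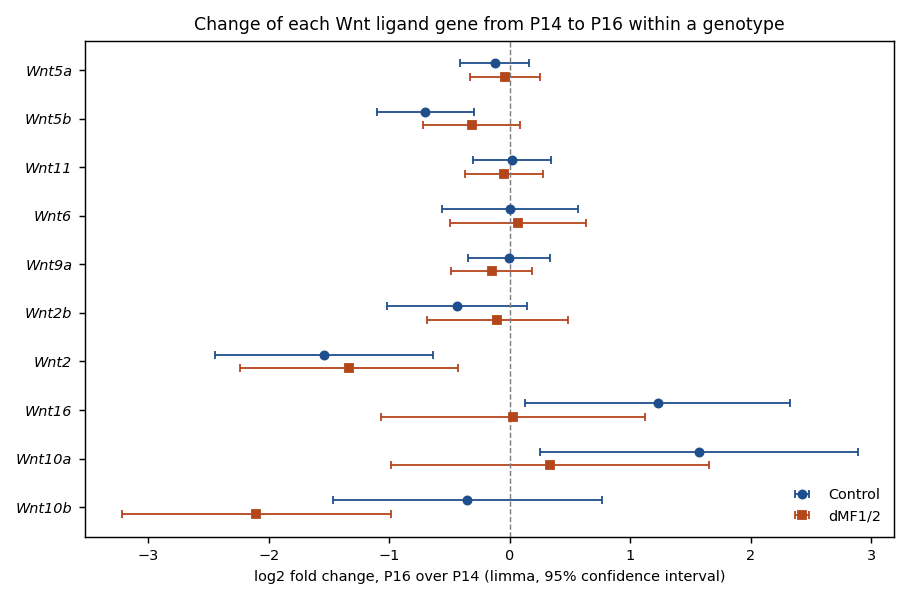
Log2 fold change from P14 to P16 (x axis) of each member in control and dMF1/2 mice. Points are limma estimates and bars 95% confidence intervals. The control intervals of Wnt5b and Wnt2 lie below 0 and those of Wnt16 and Wnt10a above 0, and in dMF1/2 those of Wnt2 and Wnt10b lie below 0.

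Whether the genotypes differed in their change was tested as an interaction. By limma, 0 of 10 members and 0 of 13415 genes passed (0%), 1 member (Wnt10b) and 648 genes had an unadjusted p under 0.05, and DESeq2 called 0 members and 7 genes. Wnt10b had an interaction of -1.75 on the log2 scale (SE 0.72, unadjusted p = 0.0325, adjusted p = 1) and Wnt16 of -1.20 (SE 0.71, adjusted p = 1). A different time course in mutants is thus not shown for any member by this test.

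Several marker sums moved beside these ligands. The dermal papilla markers summed to 38753 normalized reads in P16 control 1, 79677 in P16 control 2 and 68637 in P16 control 3, all below the 82346 to 126630 of the P16 mutants. Of the 12 markers 4 passed at P16, beside 4.32% of all genes. An unadjusted p under 0.05 was held by 11 of the 12, and by 2559 of all 13457 genes. Alpl (log2 fold change 2.45), Prom1 (1.07) and Fgf10 (0.96) were higher in mutants and Crabp1 (-0.66) was lower, and the median of the 12 was 0.97. Wnt16 and Wnt10a were highest in P16 control 1, the library with the lowest sum. Wnt5a and Wnt5b were higher in mutants also at P14, where the sums overlapped (102010 to 141618 in controls, 88656 to 143668 in mutants). Single papilla markers differed at P14 in both directions, although none of the 12 passed the test. An unadjusted p under 0.05 was held there by 5 of the 12, and by 976 of all 13334 genes. Alpl (697 to 1474 normalized reads in controls, 2364 to 3821 in mutants) was higher in mutants without overlap, and so was Prom1, while Crabp1 (6209.98 to 10915 against 2576 to 5359.6) and Vcan were lower. From P14 to P16 in controls, where Wnt5b and Wnt2 fell, 6 of the 12 papilla markers also fell, beside 14.5% of all genes called in either direction, among them Corin (-2.22) and Alpl (-1.97), and the median log2 change of the 12 was -0.96. In mutants none of the 12 passed, beside 5.80% of all genes, and the median was -0.22. For that change 4 of the 12 had an unadjusted p under 0.05, as had 3063 of all 13415 genes. The part of these marker differences in the ligand values was not tested for either day or for the change between days.

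The 5 dermal sheath markers (contractile genes such as Acta2, of the cells around the follicle) summed to 15238, 31175 and 46862 normalized reads in P14 controls 1, 2 and 3 and to 17040, 38321 and 40143 in the mutants. At P14 Wnt16 was lowest in the library numbered 1 of each genotype, as this sum was. At P16 it was not ordered like the sum, which was 17734, 36971 and 26674 in controls and 16638, 28572 and 22907 in mutants, with Wnt16 highest in number 1. The part of sheath cells in Wnt16 was not tested. The keratinocyte markers summed to 616 in the P16 control with 437 normalized reads of Wnt10a, and to 1306 and 543 in the other 2 controls, and the part of epithelial cells in Wnt10a was not tested.

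**Figure D5:**
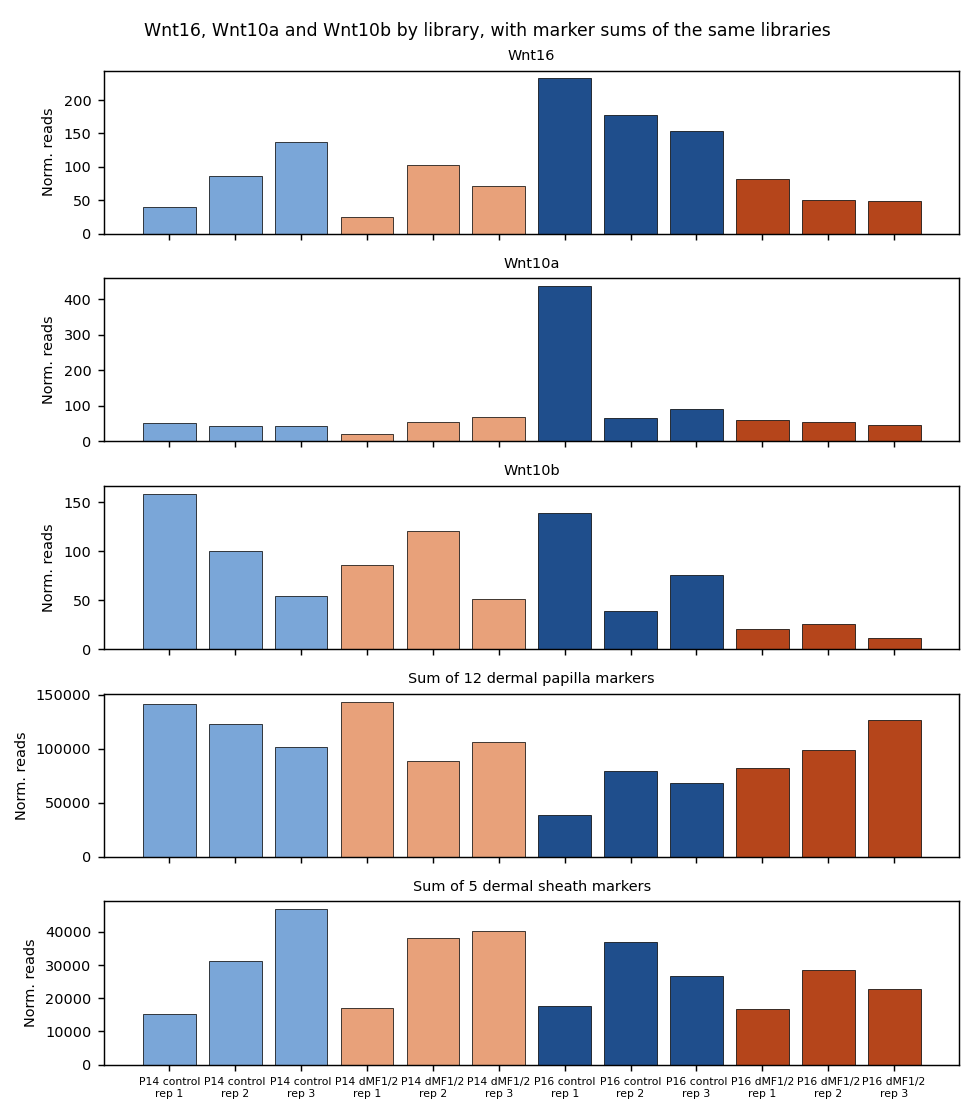
Normalized reads of Wnt16, Wnt10a and Wnt10b in each of the 12 libraries, above the summed normalized reads of 12 dermal papilla and 5 dermal sheath markers in the same libraries. Bars are single libraries, scaled together. P16 control 1 has the highest Wnt16 (232) and Wnt10a (437) and the lowest papilla sum (38753).

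Over the 12 libraries, Wnt5a and Wnt5b followed one another with a Pearson r of 0.84 on the log2 scale, and Wnt16 and Wnt10a with 0.73, while Wnt5b and Wnt16 ran opposite (-0.67). The libraries share genotype and day, so these values describe the groups as much as the genes. Among the 10231 genes whose mean reached 100 normalized reads, the pattern most like Wnt5a was that of Ltbp1, a latent TGF-beta binding protein (r = 0.952), followed by Neo1, Cars2, Ccdc3 and Rgs6. For Wnt5b it was Nlgn3 (0.967), followed by Ephx2, Npy4r, Sertad4 and Tmem158. For Wnt16 it was Rhob (0.976), followed by Myo1c, Nrbf2, Plekhf1 and Lmna.

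The genes that process and receive Wnt ligands were counted from fixed lists. Of 10 genes for acylation, export and removal, none passed the genotype test at either day, and 1, Notum, passed over both days, with a log2 fold change of -1.66 (adjusted p = 0.00937). At P14 Notum had 3053 to 7431 normalized reads in controls and 1070 to 2341 in mutants. At P16 it had 8004 to 10388 in controls and 1640 to 5031.5 in mutants, so the genotypes overlapped on neither day. The acylating enzyme Porcn had 144 to 175 normalized reads in P16 controls and 193 to 234 in P16 mutants, with an adjusted p of 0.1002. The median log2 fold change of this list at P16 was -0.03, and that of all genes tested was -0.0043.

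Of 16 receptors, Fzd10 passed at P16. It had 161 to 514 normalized reads in controls and 1025 to 1691 in mutants, a log2 fold change of 2.14 (adjusted p = 0.0228). Over both days Fzd10 passed too (1.59, adjusted p = 0.00491), and so did the co-receptor Lrp5, lower in mutants (-0.38, adjusted p = 0.0157). Ror2 and Ryk, receptors of Wnt5a, had log2 fold changes of 0.14 and 0.01 at P16 and did not pass (adjusted p = 0.555 and 0.972). The median of the receptors at P16 was 0.03.

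Of 7 secreted proteins that bind Wnt ligands, Sfrp2 passed at P16, higher in mutants with 2808 to 3424 normalized reads against 663 to 1330 in controls (log2 fold change 1.89, adjusted p = 0.00801). Of 12 planar polarity genes, Daam2 (1.20, adjusted p = 0.00611) and Prickle2 (0.48, adjusted p = 0.0341) passed at P16, both higher. Over the 4 lists 4 of 45 genes passed at P16, beside 4.32% of all genes. Over both days 5 of 45 passed, Sfrp2 (1.20, adjusted p = 0.0143) and Daam2 (0.84, adjusted p = 0.00518) besides the 3 given above, beside 6.54% of all genes. At P14 no gene of these 4 lists passed. In controls from P14 to P16, 1 of the 10 processing genes rose, 1 receptor rose and 2 fell, 2 binders fell and 1 polarity gene fell, which is 7 of 45 listed genes, beside 14.5% of all genes. In mutants 3 of the 45 rose (Vps35, Tmed5 and the receptor Fzd3) and none fell, beside 5.80% of all genes. The medians at P16 were 0.86 for the binders and 0.10 for the polarity genes.

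RefSeq promoters (GRCm38.p6) were listed for 8 of the members and not for Wnt5a or Wnt10a. The 250 bases before each start were searched on both strands for the letters CTTTGA (bound by TCF/LEF), TGANTCA (AP-1) and CCGGAAG (ETS), 3 motifs that do not overlap in these matches. Wnt5b is shown because it was the member with matches of 2 kinds, at different starts, with the match in capitals. A further start of Wnt5b, with the window chr6:119467212-119467461, held none of the 3 motifs and is not shown. Wnt5b had more listed starts than any other member, and so more windows in which a match could fall. Reads were counted per gene, so which start was used is not known.
Wnt5b, chr6:119544348-119544597, minus strand, AP-1 match 191 bases before the start: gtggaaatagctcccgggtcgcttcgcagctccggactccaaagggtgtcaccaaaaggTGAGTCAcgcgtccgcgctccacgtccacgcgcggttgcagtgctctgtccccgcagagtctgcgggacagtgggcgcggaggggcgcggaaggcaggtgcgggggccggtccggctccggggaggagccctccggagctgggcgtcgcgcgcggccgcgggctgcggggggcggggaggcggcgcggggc
Wnt5b, chr6:119449387-119449636, minus strand, TCF/LEF match 71 bases before the start: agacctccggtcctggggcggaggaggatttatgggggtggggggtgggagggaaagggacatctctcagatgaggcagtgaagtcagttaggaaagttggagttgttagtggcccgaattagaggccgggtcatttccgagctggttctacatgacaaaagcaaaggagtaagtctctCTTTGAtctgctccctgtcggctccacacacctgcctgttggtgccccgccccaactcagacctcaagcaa

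Wnt11 held 1 TCF/LEF match, 50 bases before one of its starts, and the windows of Wnt16, Wnt6, Wnt2b, Wnt2, Wnt9a and Wnt10b held none of the 3. Over 32851 promoters, 13.8% held the TCF/LEF letters, 6.75% those of AP-1 and 6.91% those of ETS. A match describes the letters and is not a site of binding.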

How the data were processed

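DP cells were sorted by FACS for YFP from trypsin- and collagenase-treated whole skin, with 3 controls and 3 double mutants for P14 and as many for P16. Ribosomal RNA was depleted and stranded libraries were read as single ends of 61 bases. Per the submitters' processing notes and the methods of the study, the authors used Trimmomatic for trimming, Tophat version 2 for alignment (mm10), HTSeq for counts per Ensembl gene (GRCm38.p4) and DESeq2 for normalization. The deposited signal values are gene counts that the authors divided by DESeq2 size factors, set over the 6 libraries of a day. For 100% of values a whole read number was recovered (within 0.01). The tables' own columns of DESeq2 means, fold changes, errors, statistics and p-values for dMF1/2 against control hold the authors' comparison and were not used. Libraries of other days were not analysed here.

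The members, gene lists and tests were chosen with earlier results of these data known. Members are the 10 genes named Wnt with a number, in both tables, with the highest mean of the 12 libraries, and had to include Wnt5a, Wnt5b and Wnt16. Genotypes were compared within a day by limma 3.58.1 with a mean-variance trend (R 4.3.3) on the log2 scale after adding 1 to each normalized read count, keeping genes whose mean reached 10, with Benjamini-Hochberg adjustment. For both days, changes between days and the interaction, the recovered reads of the 14986 shared genes were rescaled together (median of ratios over 12 libraries), and 1 model with 4 groups was fitted. Named genes are all members, the 5 nearest patterns of 3 members and pathway list genes called at P16; Notum, Lrp5, Porcn, Ror2, Ryk, Vps35, Tmed5, Fzd3 and single marker genes were named after their values were seen. Levels per kilobase used merged exons of GENCODE M21. The tests were checked on simulated data.

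Same-numbered libraries correlated in their deviations from the group means over genes, by 0.586, 0.389 and 0.304 at P14 and 0.256, 0.293 and 0.311 at P16, so the number was taken to pair libraries within a day. The labels do not say what a number shares. Alternatives were DESeq2 1.42.0, edgeR 4.0.16, TMM scaling, pseudocounts of 0.1 and 10, 2 other filters, a joint fit or one of the compared libraries only, the replicate block and leaving out each library, and, chosen after seeing the data, leaving out both P14 libraries numbered 1. The depth of 19302358 to 29860750 reads leaves Wnt10b with as few as 11 reads in a library.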

Additional observations from a re-analysis of the deposited data

How the results depend on the processing

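At P14, where no member passed, DESeq2 called 1 member (Wnt5a) and the replicate block 2. DESeq2 and the replicate block each called 4 members over both days in place of 2. The replicate block changed no other call of a member than those given with the results. With only the libraries compared, the change in controls gave 0 members and the change in mutants 2 (Wnt10b and Wnt2), and DESeq2 gave the same 2 for the latter. Without both P14 libraries numbered 1 each change gave 0 members, and the log2 fold change of Wnt9a over both days was 0.045. Leaving out single libraries, 1 to 4 members passed for genotype at P16, 0 to 3 for the change in controls and 0 to 2 for the change in mutants. Over those fits Wnt16 at P14 ranged from -0.91 to 0.13 in log2 fold change, and over both days Wnt6 from -0.22 to 0.024, Wnt9a from -0.087 to 0.069, Wnt2b from -0.12 to 0.15 and Wnt2 from -0.10 to 0.26. The cause was not tested, beyond the fewer samples of these fits. Of the members' fold changes given as values with the results, no other turned its direction. Some of those only plotted did without single libraries, such as Wnt10a at P14 (-0.49 to 0.39) and Wnt16 in mutants from P14 to P16 (-0.54 to 0.45).

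Over all genes, DESeq2 called 207 genes at P14 in place of 7, 1123 at P16 in place of 582, 1334 over both days in place of 877 and 1341 for the change in mutants in place of 778. The replicate block called 224, 1403 and 1684 in the first 3 of these comparisons, and a joint fit called 11 at P14. With only the libraries compared, 806 genes passed in place of 1951 in controls and 322 in mutants. Without single libraries the calls over all genes ran from 0 to 18 at P14, 149 to 684 at P16, 428 to 885 over both days, 696 to 2136 for the change in controls and 257 to 861 in mutants, so the shares of all genes given with the results move with single libraries. Wnt10b held 11 to 168 reads per library, which limits its precision.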
